A study of Mus musculus with 4 samples.

Results

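Genes of the transforming growth factor beta (TGF-beta) and bone morphogenetic protein (BMP) pathways were examined for binding of tagged Fbxl10 in MEFs, fibroblasts grown out of mouse embryos. The 42 genes were taken as a named list of pathway genes, of 21887 protein-coding genes on the nuclear chromosomes, with no peak value in the rule, though earlier results of these data were known when the list was made. They comprised 14 ligands, 10 receptors, 8 Smads, 6 antagonists and 4 Id genes. The induced group was ChIP with an HA antibody on MEFs overexpressing HA-tagged Fbxl10 and given doxycycline at 1 µg/ml for 48 hours. The non-induced group was the same ChIP on MEFs of the same genotype without doxycycline, and the series also describes an input library for each. The sources used here do not give the mouse strain, the embryonic age or the promoter behind the transgene. A single peak list was analysed per condition, so there was no replicate check, no test was made between the conditions, and intervals cover counting error only. Peak lists give no expression, so neither the fibroblast identity nor the induction of the transgene could be checked from them.

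TGF-beta, activin and BMP ligands are secreted dimers that bring type I and type II receptor kinases together on the cell surface. Type I receptors phosphorylate receptor-regulated Smads, which join Smad4 and enter the nucleus, where the Id genes are classic BMP targets. In fibroblasts the pathway is best known for driving matrix production and myofibroblast differentiation. Fbxl10, also called Kdm2b, is a histone demethylase whose zinc finger binds unmethylated CG pairs and which brings a variant Polycomb complex to CG-rich promoters.

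The promoter windows shown here are those of genes whose peaks differ in position or score, and they span a wide range of CG content. RefSeq windows (build GRCm38.p6, the assembly behind mm10) reach from 250 bases before to 50 after the annotated start, and 28 of the 42 genes had a window. CG pairs are in capitals. The Id2 window was the only member window that an induced peak overlapped. Smad6 and Grem1 had the highest induced scores among genes with a peak within 1 kb of the RefSeq start, and Tgfb1 shared its peak with another gene. Bmp5 had the fewest CG pairs of the 28 and peaks in the non-induced list alone. Ski, with the most CG pairs (59), had no peak of either list inside or within 5 kb.
Id2 (chr12:25096043-25096342, minus strand, 21 CG pairs): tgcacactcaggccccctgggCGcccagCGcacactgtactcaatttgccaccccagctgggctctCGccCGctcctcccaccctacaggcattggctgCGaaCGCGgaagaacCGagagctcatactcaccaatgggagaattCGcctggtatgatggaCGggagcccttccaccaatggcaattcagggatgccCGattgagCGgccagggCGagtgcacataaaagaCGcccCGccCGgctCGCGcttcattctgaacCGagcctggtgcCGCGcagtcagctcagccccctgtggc
Smad6 (chr9:64022010-64022309, minus strand, 31 CG pairs): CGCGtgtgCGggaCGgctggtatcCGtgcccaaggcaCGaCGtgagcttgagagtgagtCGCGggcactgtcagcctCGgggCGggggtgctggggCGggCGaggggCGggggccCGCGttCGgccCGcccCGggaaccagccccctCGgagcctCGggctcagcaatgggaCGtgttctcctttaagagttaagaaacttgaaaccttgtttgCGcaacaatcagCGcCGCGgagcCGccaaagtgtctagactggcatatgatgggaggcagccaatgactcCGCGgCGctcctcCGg
Grem1 (chr2:113758599-113758898, minus strand, 28 CG pairs): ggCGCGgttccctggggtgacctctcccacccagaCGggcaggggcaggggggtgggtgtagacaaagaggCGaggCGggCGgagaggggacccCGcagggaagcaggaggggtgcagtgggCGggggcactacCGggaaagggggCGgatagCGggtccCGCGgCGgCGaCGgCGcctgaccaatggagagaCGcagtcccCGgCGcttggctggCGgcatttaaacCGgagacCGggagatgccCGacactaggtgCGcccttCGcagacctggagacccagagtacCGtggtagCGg
Tgfb1 (chr7:25686752-25687051, plus strand, 30 CG pairs): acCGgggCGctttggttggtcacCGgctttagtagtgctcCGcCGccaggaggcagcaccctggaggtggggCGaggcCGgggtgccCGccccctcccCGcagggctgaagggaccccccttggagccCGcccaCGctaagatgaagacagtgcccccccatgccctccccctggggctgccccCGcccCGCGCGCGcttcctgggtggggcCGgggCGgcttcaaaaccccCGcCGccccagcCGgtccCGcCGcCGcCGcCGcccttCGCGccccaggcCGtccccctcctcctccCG
Bmp5 (chr9:75775115-75775414, plus strand, 4 CG pairs): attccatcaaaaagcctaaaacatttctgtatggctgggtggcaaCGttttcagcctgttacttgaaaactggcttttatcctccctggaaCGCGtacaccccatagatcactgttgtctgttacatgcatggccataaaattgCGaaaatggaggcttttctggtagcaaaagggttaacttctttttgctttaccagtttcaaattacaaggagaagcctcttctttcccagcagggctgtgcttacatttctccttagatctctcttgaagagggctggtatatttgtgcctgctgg

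Induced peaks were found near the ends of 11 pathway genes, where the non-induced list had none. Counted within 1 kb of either end of the gene, they marked 11 of the 42 genes (26.2%, exact 95% interval 13.9 to 42). The non-induced list had 0 there, which allows a share of up to 7.14%. Over all protein-coding genes the shares were 13.4% for induced and 1.59% for non-induced peaks. Within 5 kb of an end, 17 genes (40.5%, 25.6 to 56.7) had an induced peak and 4 (9.52%, 2.66 to 22.6) a non-induced peak, against 18.4% and 5.36% of all genes. When peaks anywhere inside the gene were counted as well, the numbers were 20 (47.6%, 32.0 to 63.6) and 8 (19%, 8.60 to 34.1), against 21.4% and 12.7%. Within 1 kb the induced background of 13.4% was close to the lower limit of 13.9%. Promoter windows of the pathway genes also held more CG pairs than those of other genes (medians 27.5 and 13). With 25 or more pairs, 29.4% of pathway genes (10.3 to 56.0) and 24.7% of all genes had an induced peak within 1 kb. Inside or within 5 kb it was 47.1% (23.0 to 72.2) and 36%. These intervals treat genes as independent, and no test of the list was made.

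**Figure D1:**
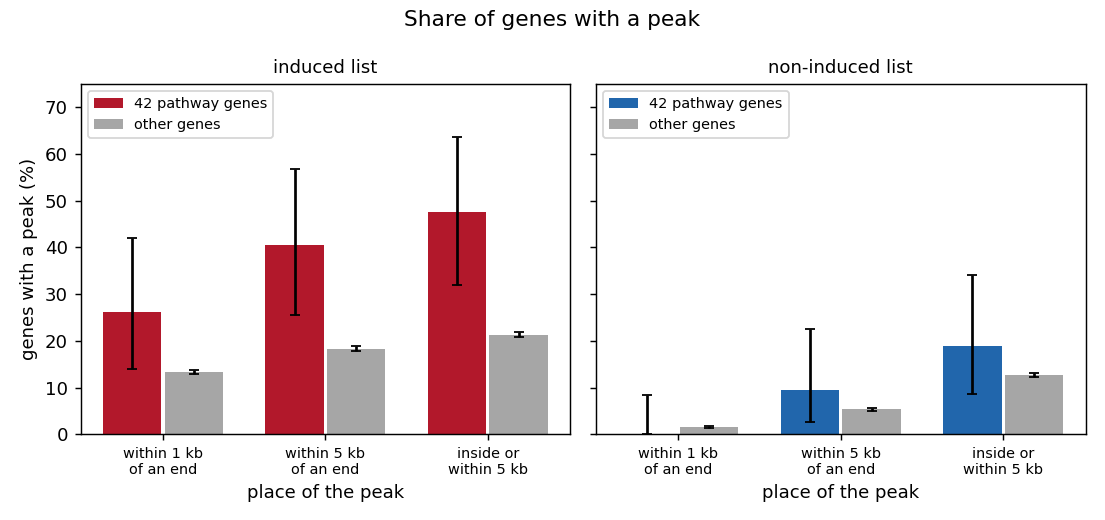
Share of genes with a peak (percent, y axis) by the place of the peak (x axis), in the induced list (left) and the non-induced list (right). Coloured bars are the 42 pathway genes, grey bars all other protein-coding genes, and error bars exact 95% binomial intervals. Induced shares of the pathway genes are 26.2%, 40.5% and 47.6%, against 13.4%, 18.3% and 21.3% of other genes.

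The induced peaks at pathway genes had a median score close to that of their whole list, and below that of other peaks at gene ends. The score is the authors' own value for each peak, it begins at 50 in both lists, and the sources used here do not state its formula. The 22 induced peaks inside or within 5 kb of a pathway gene had a median score of 66.1 (range 50.8 to 195), beside 66.6 over the whole induced list of 5497 peaks. The 12 induced peaks within 1 kb of an end of a pathway gene also had a median of 66.1 (51.7 to 135), beside 78.6 over the 2591 induced peaks within 1 kb of an end of any protein-coding gene. The 10 non-induced peaks had a median of 65.8 (51.5 to 147), beside 60.2 over the 10532 peaks of that list. None of these peaks overlapped a peak of the other list, and over the whole lists 3.37% of induced and 1.78% of non-induced peaks did, so a count of 0 is near the background. Of the 22 induced peaks 4 (18.2%) scored at least 100, against 21.2% of the whole induced list, and of the 10 non-induced peaks 1 did, against 3.59%. With only such peaks kept, 3 of the 42 genes (7.14%) had an induced peak within 1 kb, against 4.25% of all genes. Within 5 kb it was again 3 genes, against 5.71%, and inside or within 5 kb 4 genes (9.52%), against 6.13%. At or above the joint median score of both lists (61.6), 6 (14.3%), 9 (21.4%) and 11 (26.2%) genes had an induced peak by the same 3 rules, against 9.8%, 13.3% and 14.8% of all genes. In the non-induced list the counts at or above that score were 0, 2 and 6, against 0.845%, 2.54% and 6.77%, and at a score of at least 100 they were 0, 1 and 1, against 0.11%, 0.265% and 0.69%.

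**Figure D2:**
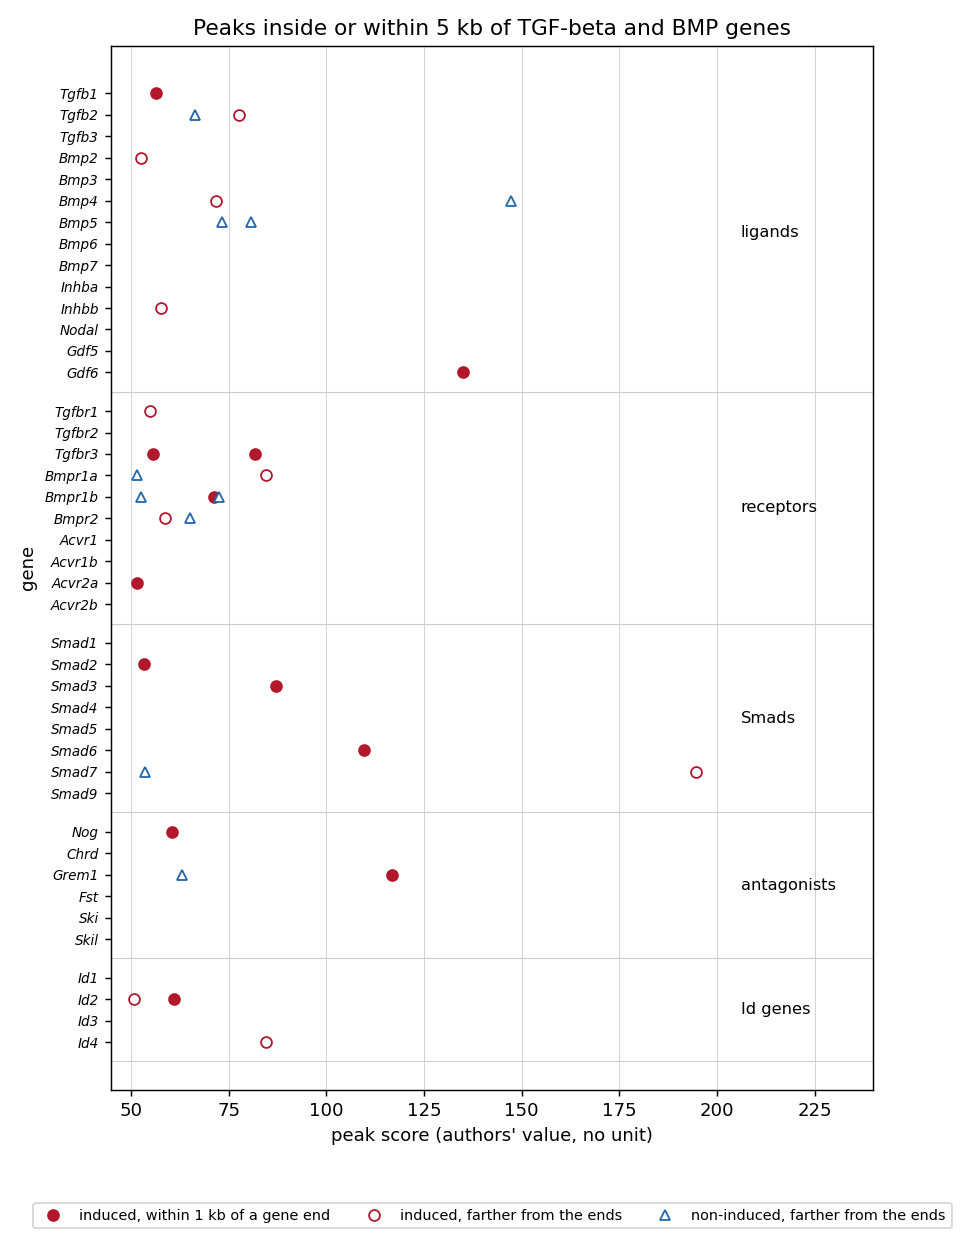
Score of each peak (x axis, the authors' value) for each of the 42 genes (y axis, by class). Circles are induced and triangles non-induced peaks, filled where the peak is within 1 kb of a gene end; an empty row is a gene without a peak inside or within 5 kb. The highest induced peak is that of Smad7 (195) and the highest non-induced peak that of Bmp4 (147).

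Peaks of both lists occurred at 7 of the 42 genes (16.7%) inside or within 5 kb: Tgfb2, Bmp4, Bmpr1a, Bmpr1b, Bmpr2, Smad7 and Grem1. Over all protein-coding genes the share was 4.09%. This comparison was not split by gene length. Tgfb2, Bmpr1a, Bmpr1b and Bmpr2 are longer than 50 kb, while Bmp4, Smad7 and Grem1 are shorter. Over all genes of 50 kb or longer, 30.2% had an induced and 34% a non-induced peak. Among shorter genes the shares were 18.8% and 6.42%. At least 1 list had a peak at 21 of the 42 genes (50%), against 29.9% of all genes. In the induced list 3 genes (Tgfb2, Tgfbr1 and Smad7) had a peak inside the gene and over 5 kb from both ends and no nearer one, which is 7.14%, against 2.98% of all genes. In the non-induced list 4 genes did (Tgfb2, Bmp5, Bmpr1b and Bmpr2), which is 9.52%, against 7.29%.

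Coordinates of peaks are those of mm10. Among the 14 ligands, 6 (42.9%, 17.7 to 71.1) had an induced peak inside or within 5 kb, against 21.4% of all genes. A non-induced peak was there at 3 (21.4%, 4.66 to 50.8), against 12.7%. Within 1 kb, 2 (14.3%, 1.78 to 42.8) had an induced peak, near the 13.4% of all genes. Gdf6, a BMP-family ligand of joint and eye development, had the highest induced score of the ligands. Its peak (chr4:9845316-9846495, score 135, rank 517 of the induced list) lay 944 bp inside the gene from the low-coordinate end. Tgfb1, the prototype of the family, had an induced peak of score 56.4 (chr7:25687262-25687966) that began 260 bp downstream of the start. That peak also lay within 1 kb of an end of B9d2, which encodes a protein of the cilium base.

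Bmp4, a ligand of early mesoderm and limb, had the highest non-induced score of the 42 genes. Its induced peak (chr14:46387333-46388169) had a score of 71.7, above 57.1% of the induced list, and its non-induced peak (chr14:46384744-46385397) had a score of 147, above 99.3% of the non-induced list. The non-induced peak ranked 72 of its list and lay 1219 bp from the 3′ end, and the induced peak lay 2500 bp from the 5′ end. The peaks were 1936 bp apart inside the same gene, and the induced peak was also within 1 kb of an end of the noncoding gene Gm15222. Whether scores of the lists share a scale was not tested.

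The induced peaks of the remaining marked ligands had low or middling scores. Tgfb2 had an induced peak of score 77.8, 2806 bp downstream of its RefSeq start and within 1 kb of an end of the noncoding gene Gm35655, and a non-induced peak of 66.5 deep in the gene. Inhbb, which encodes the activin B subunit, had an induced peak of 57.6 that lay 1498 bp from its 5′ end. Bmp2, which drives bone and heart formation, had an induced peak of 52.7 at 1617 bp from its low-coordinate end. Bmp5 was the only one of the 42 genes with non-induced peaks and no induced peak, and the nearest induced peak was 216 kb away. Its non-induced peaks had scores of 73.3 and 80.8, above 81.5% and 89.2% of the non-induced list. Tgfb3, Bmp3, Bmp6, Bmp7, Inhba, Nodal and Gdf5 had no peak of either list inside or within 5 kb. Of these, Bmp6 was nearest to an induced peak (34.5 kb) and Bmp3 farthest (672 kb).

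Of the 10 receptors, 6 (60%, 26.2 to 87.8) had an induced peak inside or within 5 kb and 3 (30%, 6.67 to 65.2) a non-induced peak. The shares of all genes were 21.4% and 12.7%. Within 1 kb, 3 receptors (30%, 6.67 to 65.2) had an induced peak, against 13.4% of all genes. Tgfbr3, or betaglycan, the co-receptor that presents TGF-beta to the signalling receptors, had a pair of induced peaks at its high-coordinate end. They had scores of 81.7 and 55.8, and the lower-scoring peak covered the end itself. Bmpr1b, a type I BMP receptor of skeletal development, had an induced peak of 71.2 over its 5′ end (chr3:142168634-142169777). Acvr2a, a type II activin receptor, had an induced peak of 51.7, near the lowest score of the list, 549 bp downstream of its start.

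The receptor genes Bmpr1a, Bmpr1b and Bmpr2 each had an induced peak within 5 kb of the 5′ end. Bmpr1a, a type I receptor, had an induced peak of 84.7 that lay 447 bp downstream of the RefSeq start and 1237 bp from the end of the gene model, just outside the window of 1 kb. Bmpr2, the type II BMP receptor, had an induced peak of 58.7 lying 1150 bp upstream of its start. These 2 genes and Bmpr1b also had non-induced peaks, with scores of 51.5 at Bmpr1a, 65.2 at Bmpr2, and 52.6 and 72.5 at Bmpr1b. The non-induced peak of Bmpr1a lay outside the gene, 4951 bp from its 5′ end and so barely within the 5 kb limit. Its score was above 12.1% of the non-induced list. At Bmpr1b, a gene of 332 kb with 3 RefSeq starts in the promoter table, the non-induced peak of score 52.6 lay 270 bp from a start inside the gene. Tgfbr1, the type I TGF-beta receptor, had an induced peak of 54.8 at 17.9 kb from the nearer end. Tgfbr2, Acvr1, Acvr1b and Acvr2b had no peak of either list inside or within 5 kb, with the nearest induced peaks at 258, 260, 27.1 and 77.6 kb from the gene.

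The receptor genes are long, with a median length of 90.7 kb, against 39.5 kb over the 42 genes and 17.1 kb over the other protein-coding genes. Long genes had more peaks inside or within 5 kb in both lists. Of the 18 pathway genes of 50 kb or longer, 10 (55.6%) had an induced and 5 (27.8%) a non-induced peak, against 30.2% and 34% of all genes of that length. Of the 24 shorter genes 10 (41.7%) had an induced and 3 (12.5%) a non-induced peak, against 18.8% and 6.42%.

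Among the 8 Smads, 4 had an induced peak inside or within 5 kb: Smad2, Smad3, Smad6 and Smad7. These 4 are 50% (15.7 to 84.3), against 21.4% of all genes. The Smad genes are also long, with a median of 65 kb, and of all genes of 50 kb or longer 30.2% had such a peak. Within 1 kb, 3 Smads (37.5%, 8.52 to 75.5) had an induced peak, against 13.4% of all genes. Smad2 and Smad3 are the receptor-regulated Smads of TGF-beta and activin, and Smad6 and Smad7 are the inhibitory Smads that feed back on the receptors. Smad7 had the highest induced score of the 42 genes (195, rank 170 of the induced list), in the widest of their peaks (1721 bp). It lay inside the gene, 5403 bp from the low-coordinate end. A non-induced peak of score 53.5 lay 152 bp from it without overlapping it.

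Smad6 had an induced peak of score 110 (chr9:64020965-64021835) that began 224 bp downstream of its RefSeq start. Smad3 had an induced peak of 87.2 (chr9:63758542-63759498) that lay 548 bp upstream of its start. At Smad2 an induced peak of 53.4 covered the low-coordinate end. Smad1, Smad5 and Smad9, the receptor-regulated Smads of the BMP branch, and the shared partner Smad4 had no peak of either list inside or within 5 kb. Their nearest induced peaks were 65.9, 64.3, 20.4 and 62.5 kb away. This split was seen after the values were known and rests on Smad1, Smad2, Smad3, Smad5 and Smad9 alone. It did not extend to the other classes. Induced peaks were at Tgfb1, Tgfb2, Tgfbr1 and Tgfbr3, and also at Bmp2, Bmp4, Bmpr1a, Bmpr1b and Bmpr2. Tgfb3 and Tgfbr2 had none, and neither had Bmp3, Bmp5, Bmp6 and Bmp7.

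Of the 6 antagonists, 2 (33.3%, 4.33 to 77.7) had an induced peak inside or within 5 kb, against 21.4% of all genes. The same 2 had it within 1 kb, against 13.4% of all genes. Both encode secreted proteins that bind BMPs. Grem1, which encodes gremlin of limb bud and stroma, had an induced peak of score 117 (chr2:113757071-113758416, rank 760), 1346 bp wide and beginning 232 bp downstream of its start. It also had a non-induced peak of 63.0 at 3277 bp from its 3′ end, 4549 bp from the induced peak. Nog, which encodes noggin, had an induced peak of 60.6 inside the gene, 675 bp from its high-coordinate end. Chrd and Fst, which encode the secreted chordin and follistatin, and the nuclear corepressors Ski and Skil had no peak of either list inside or within 5 kb.

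Of the 4 Id genes, inhibitors of bHLH transcription factors, Id2 and Id4 had induced peaks and none had a non-induced peak. Within 1 kb, Id2 alone had an induced peak (25%, 0.631 to 80.6), against 13.4% of all genes. Inside or within 5 kb the induced share was 50% (6.76 to 93.2), against 21.4% of all genes. The count of 0 non-induced peaks allows up to 75%, beside 12.7% of all genes. Id2 had an induced peak of 61.0 across its start (chr12:25095916-25096558), and a lower-scoring peak of 50.8 lay 3608 bp upstream. Id4 had an induced peak of 84.7 lying 1382 bp downstream of its start, and within 1 kb of an end of the noncoding gene A330033J07Rik. At Id1 and Id3 the nearest induced peaks were 28.0 and 72.0 kb away.

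Where strand was known, the induced peaks within 1 kb of an end lay at the 5′ end. Of the 28 genes with a promoter window, 7 (25%) had an induced peak within 1 kb of the 5′ end and 0 within 1 kb of the 3′ end, which allows up to 10.7%. Of all 17492 genes with a window the shares were 12.7% and 1.62%. Neither end of these 28 genes had a non-induced peak within 1 kb, where the shares of all genes were 0.863% at the 5′ end and 0.8% at the 3′ end.

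Among the pathway genes with a RefSeq start and an induced peak within 5 kb of it, the nearest peak mostly began after the start. For 12 of the 28 genes the nearest induced peak was within 5 kb of the RefSeq start. It lay downstream in 9 (75%), upstream in 2 (Bmpr2 and Smad3) and over the start in 1 (Id2). Of the 2825 genes with such a peak in the whole table, it covered the start in 47.8%, lay downstream in 29.3% and upstream in 22.9%. The downstream peaks began between 224 bp (Smad6) and 2806 bp (Tgfb2) after the start. Outside this count, induced peaks covered an end of the gene model at Bmpr1b, Smad2 and Tgfbr3. The Bmpr1b peak was far from the RefSeq starts of that gene, and the other genes had no window. This comparison was made after the values were seen, rests on 12 genes and was not tested.

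**Figure D3:**
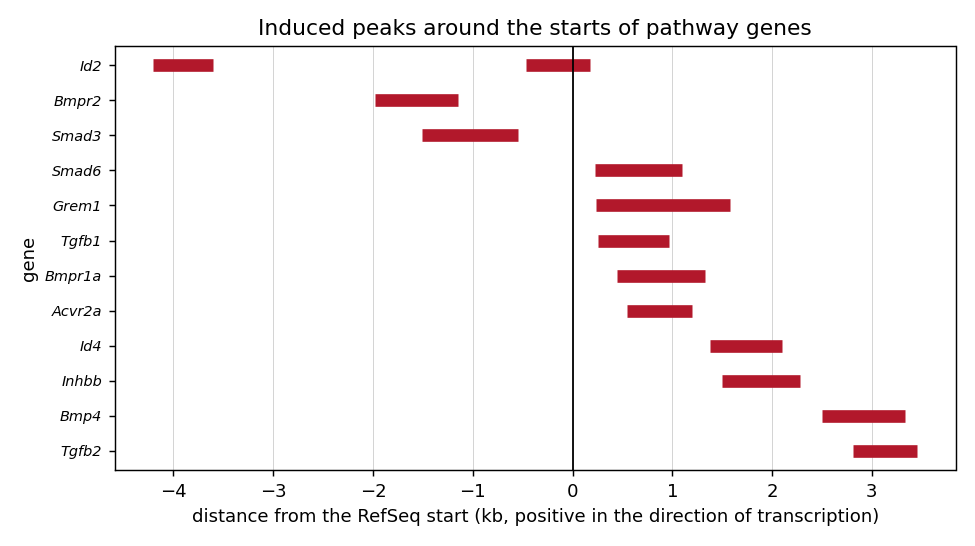
Extent of each induced peak (bars) within 5 kb of the RefSeq start of a pathway gene, as distance from the start in kb (x axis), positive in the direction of transcription, with 1 gene per row. Id2 has a peak across the start and another upstream, the peaks of Bmpr2 and Smad3 lie upstream, and those of the other 9 genes lie downstream.

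The promoters of the pathway genes were rich in CG pairs. The motif CG reads the same on both strands, and a window held a median of 27.5 pairs in the 28 pathway genes (4 to 59), against 13 in other genes. CG was present in 100% of the pathway windows and 94.8% of all windows, and at least 15 pairs in 78.6% and 47.4%. The palindrome GGCGCC, found in BMP response elements of Smad target genes and itself holding a CG pair, was in 11 of the 28 windows (39.3%) and in 15.4% of all windows. The windows differ in base composition, with a median of 67% G and C in the pathway genes and 56.3% in other genes. No share was taken over windows of like composition, so a surplus of the palindrome beyond composition was not tested.

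Within the pathway, windows of genes with and without an induced peak held similar numbers of CG pairs. The median was 26.5 pairs in the 14 windowed genes with an induced peak inside or within 5 kb and 29.0 in the 14 without one. Over all genes, the share with an induced peak within 1 kb was 1.73% for windows of 0 to 4 pairs, 9.17% for 5 to 14, 21.2% for 15 to 24 and 24.7% for 25 or more. Of the 17 pathway genes with 25 or more pairs 5 (29.4%, 10.3 to 56.0) had such a peak. Of the pathway genes in the lower classes 0 of 1, 1 of 5 and 1 of 5 did. With so few genes in a class, the part of CG content in the share of the pathway genes was not tested. For peaks inside or within 5 kb the count was 8 of 17 (47.1%, 23.0 to 72.2), against 36% of all genes with that many pairs. In the lower classes the shares of all genes were 5.06%, 17.5% and 30.5%, and the pathway genes were at 0 of 1, 3 of 5 and 3 of 5. Non-induced peaks inside or within 5 kb were at 2 of these 17 genes (11.8%), against 16.8%.

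**Figure D4:**
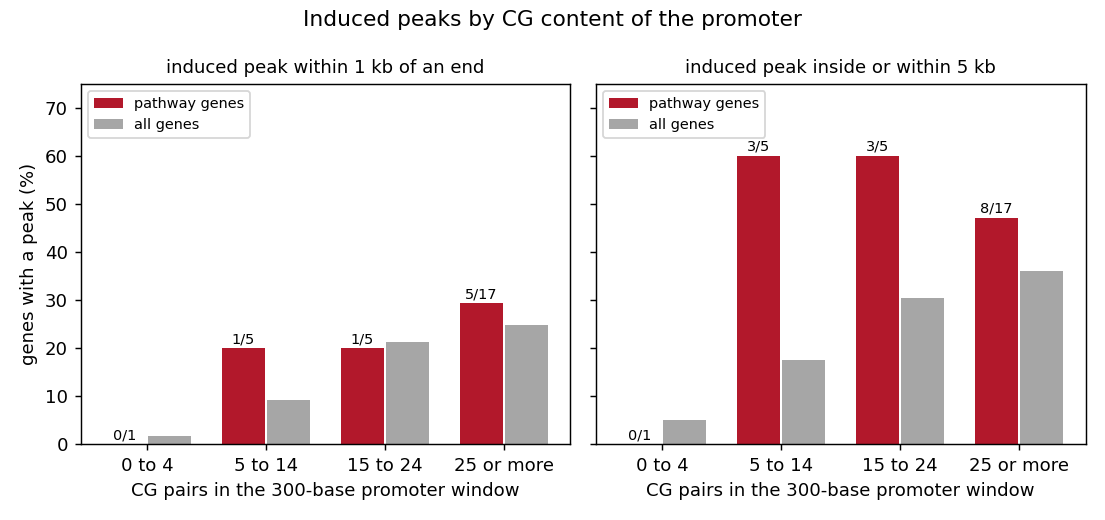
Share of genes with an induced peak (percent, y axis) by the number of CG pairs in the promoter window (x axis), within 1 kb of an end (left) and inside or within 5 kb (right). Red bars are pathway genes, with the number marked over the number of genes, and grey bars all genes with a window. In the class of 25 or more pairs the pathway genes are at 29.4% and all genes at 24.7% within 1 kb.

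A further 99 genes of the pathway were counted by role. Within 1 kb of an end, 23 of them (23.2%, 15.3 to 32.8) had an induced peak and 2 (2.02%) a non-induced peak, beside 13.4% and 1.59% of all genes. Target genes made up 11 of these 23, which is 11 of 22 target genes (50%, 28.2 to 71.8). Induced peaks were also at 3 of 12 further receptors and co-receptors (25%) and 5 of 23 extracellular regulators (21.7%). They were at 3 of 23 intracellular regulators (13%) and 1 of 19 further ligands (5.26%), near and below the 13.4% of all genes. The highest target gene scores were those of Ccn1 (211), a matricellular protein, Klf10 (191), a TGF-beta-inducible zinc finger factor, and Atoh8 (178).

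In the other further lists, 5.26% to 25% of genes had an induced peak within 1 kb, beside 13.4% of all genes. Bambi (143), a decoy receptor, Neo1 (132), a receptor for repulsive guidance molecules, and Rgma (124), a BMP co-receptor, were the 3 marked receptor genes. Thbs1 (207), which activates latent TGF-beta, Ltbp2 (82.7), of the latent TGF-beta binding protein family, and Nbl1 (73.7), a BMP antagonist, led the extracellular regulators. Zfyve16 (101), a Smad-binding endosomal protein, Peg10 (97.8) and the ubiquitin ligase gene Smurf2 (67.3) were the marked intracellular regulators. Gdf15 (108) was the marked ligand. The non-induced peaks were at the phosphatase gene Ppm1a (89.2) and at Hey1 (62.3), which also had an induced peak (55.4).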

How the data were processed

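Peak lists from ChIP-seq with an HA antibody were analysed, 1 for induced and 1 for non-induced MEFs. The deposited score of each peak is the authors' value. The authors aligned reads to mm10 with Bowtie2, per the submitters' processing notes, and the peak names in the files are those of MACS. The sources used here do not state the threshold, the use of the inputs or any pooling, and depth is unknown. Lists were assigned to conditions by the marks for with and without in the names of the lists and the titles of the libraries.

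Gene ends came from a RefSeq table of GRCm38.p6 (21887 protein-coding genes without the mitochondrial ones), and starts and strand from a RefSeq promoter table, which held 28 of the 42 genes. Neither gives exons, so peaks were not placed in exons or introns. A peak counted when any base lay within 1 kb or 5 kb of a gene end, or inside the gene. Peaks of the lists overlapped when they shared at least 1 bp. Intervals are exact Clopper-Pearson intervals at 95%, and a count of 0 has a limit of 3 counts. All 42 genes were kept and no gene was filtered. The members, the further gene lists and the alternatives were chosen with earlier results of these data known. Every member with a peak is named, and of each further list the 3 highest induced and 2 highest non-induced peaks within 1 kb. No test was run, since each condition has 1 list. The distance function was tested on simulated data and gave the same genes as bedtools 2.31.1. Software was SciPy 1.17.1, matplotlib 3.10.9, pandas 2.3.3, numpy 2.4.6 and Python 3.11.15.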

Additional observations from a re-analysis of the deposited data

How the results depend on the processing

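Counts of genes with a peak were recomputed with higher score limits, lists of equal length, peak midpoints, other windows, and without genes whose nearest peak also served another coding gene. Of 30 such values for 5 counts, 18 stayed within 1.5 times the main count, and 12 did not. The count of 0 non-induced peaks within 1 kb was left out, since these settings could not move it. Some of the 18 could not move either, so they say nothing on stability. Lists of equal length held 5497 peaks, which is the whole induced list, so the induced counts were fixed. Leaving out genes that share a peak took only Nodal, a gene without a peak, from the non-induced counts. From the induced counts it took 10 genes, of which only Tgfb1 had a peak inside or within 5 kb. The induced counts of 11, 17 and 20 could thus only become 10, 16 and 19. The score limit moved the induced counts most. At or above the joint median score of 61.6 the 11, 17 and 20 genes with an induced peak (within 1 kb, within 5 kb, inside or within 5 kb) became 6, 9 and 11, and at a score of at least 100 they became 3, 3 and 4. The 4 genes with a non-induced peak within 5 kb became 2 at the joint median, 1 at 100 and 2 with lists of equal length. The 8 with a non-induced peak inside or within 5 kb became 1 at 100. With a window of 500 bp, 7 genes had an induced peak, and with 2 kb in place of 5 kb 1 had a non-induced peak. Shares of all genes were not taken at these windows or for the non-induced list cut to equal length. These counts therefore have no background beside them. The 9 genes whose nearest induced peak lay downstream of the start became 2 of 2 at a score of at least 100, and were 6 of 7 at the joint median and 9 of 12 by midpoints or by any RefSeq start; these settings were chosen after seeing the data. No paired analysis was possible because no test was run on the single list of each condition. Depth is unknown, so a gene without a peak is one not called at these lists' limits.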
